A study of Arabidopsis thaliana with 8 samples.

Results

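Of the 8 ATH1 arrays in the series, 4 carry RNA of the Arabidopsis eif3h mutant, and these are described here by how mRNAs were spread over the gradient within the mutant. They were taken by genotype and fraction, as 2 polysomal (eif3h PL) and 2 non-polysomal (eif3h NP) arrays. The remaining 4 arrays hold the same fractions of the wild type (WT PL and WT NP) and serve only for comparison. Extracts were made from the aerial parts of 10-day-old seedlings, which were grown on agar plates with sucrose under continuous light and received no further treatment. The mutant carries the eif3h-1 allele, a T-DNA insertion that leaves an eIF3h protein without its C-terminal end, and it stands for 1 line. Sucrose gradients separated each extract, and RNA was pooled from the heavy fractions, with mRNAs that carry several ribosomes, and from the light fractions, with ribosome-free mRNAs and monosomes. All groups share age and growth conditions. The gradients of each genotype came from 2 preparations made on different days, and the PL and NP array of 1 preparation form a pair. Of the markers checked for the labelled aerial tissue, RCA of the mesophyll had signals of 14761 to 32734 over the eif3h arrays and the epidermal ATML1 had 439.2 to 735.2. The root marker PYK10 was also bright, with 8712 and 6909 in eif3h PL and 2891 and 1813 in eif3h NP, whereas the root hair marker EXPA7 had 19.6 to 135.0 and the meristem marker CLV3 4.9 to 24.0. The part of root tissue in the results was not tested.

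An mRNA that is initiated often carries many ribosomes and sediments deep into the gradient. An mRNA that is initiated rarely or is stored stays near the top. The eIF3 complex binds the small ribosomal subunit and helps it to take up the initiator tRNA and the mRNA, and its h subunit is known in Arabidopsis for mRNAs whose leaders contain upstream open reading frames. Messages of chloroplasts and mitochondria are translated on ribosomes of the organelles, not by eIF3. The measure used below is the translation state, log2 of the PL signal over the NP signal of the same gradient, where a value of 1 stands for a 2-fold higher signal in polysomal RNA. Each array had been scaled to the same trimmed mean, so a translation state places an mRNA relative to the others on the arrays and does not measure the share of its molecules in polysomes.

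The translation states of the 11373 probe sets tested were spread more widely in both eif3h gradients than in both WT gradients. In eif3h gradient 1 the translation state had a standard deviation of 0.93 across probe sets, and in eif3h gradient 2 it also had 0.93, against 0.79 and 0.84 in the WT gradients. The central 90% of probe sets spanned 2.92 and 2.97 in the eif3h gradients, and 2.54 and 2.70 in the WT gradients. In the deposited scaling the extremes were filled more heavily on the non-polysomal side. There were 294 and 242 probe sets over 4-fold lower in eif3h PL than in eif3h NP, against 150 and 164 for the same measure in WT, and 108 and 138 over 4-fold higher, against 66 and 104 in WT. In each of these measures the eif3h gradients did not overlap the WT gradients. The difference in spread was not tested. The 4-fold counts also depend on where the states are centred. The median state was -0.13 and -0.17 in the eif3h gradients, against 0.003 and -0.0004 in the WT gradients. These counts were not computed under another scaling.

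**Figure D1:**
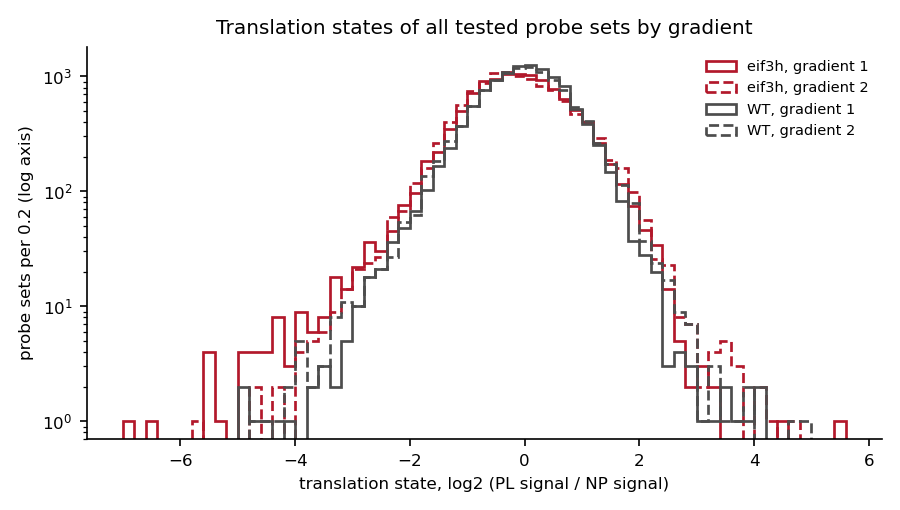
Histogram of the translation state (x axis, log2 of PL over NP signal) of 11373 probe sets in each of the 4 gradients, with the number of probe sets per bin on a logarithmic y axis. In the deposited scaling, the red lines of eif3h lie outside the grey lines of WT on the negative side. There 294 and 242 probe sets of the eif3h gradients are over 4-fold lower in PL, counts that depend on the scaling.

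The order of mRNAs was shared between the preparations. Across probe sets, which are not independent replicates, the translation states of the eif3h gradients correlated with r = 0.81 (Spearman's rho 0.80), and the sign was shared for 81.4% of them. The 2 gradients share array design and scaling with each other and with WT, whose gradients correlated with r = 0.82. Between the genotypes the mean translation states correlated with r = 0.78.

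In the fit over all 8 arrays (limma, with the replicate number as a block, two-sided), 1925 probe sets were higher in eif3h PL than in eif3h NP and 2529 were lower at a Benjamini-Hochberg adjusted p below 0.05. These are 16.9% and 22.2% of the probe sets tested, 39.2% together. All 4454 had the same sign in both eif3h gradients, as did 81.4% of all probe sets tested. They were called on the mean of these same gradients, so the shared sign is largely set by the call. Of the higher ones 755 and of the lower ones 1048 exceeded 2-fold in both. In WT the same fit called 1709 higher and 1714 lower, which is 15% and 15.1%, or 30.1% in either direction. The balance between the directions moved with the scaling. As deposited, 43.2% of the eif3h calls were on the polysomal side, after quantile normalization 54.4% and after centring each array on its median 80.1%, because the median translation state moved to 0.05 and 0.36, against -0.16 in the deposited scaling. No probe set called in the deposited scaling was called in the opposite direction in either alternative. Centring adds the same upward shift to every eif3h mean state, so it could not turn a higher call into a lower one. A lower call had to cross the whole shift and then pass the test, so for centring this was largely fixed in advance. As the balance depends on the scaling, gene groups are described below relative to the median of all genes.

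The translation state also moved with signal strength. With the probe sets in 4 bins of equal size by mean signal, from the lowest to the highest, the median translation state in eif3h was -0.41, -0.28, -0.06 and 0.33. In WT the corresponding medians were -0.09, -0.02, 0.04 and 0.15. The eif3h PL arrays had median signals of 185.8 and 189.0 and the eif3h NP arrays of 257.4 and 277.0, whereas the WT PL arrays had 194.4 and 211.1 and the WT NP arrays 214.7 and 234.4. After quantile normalization, which gives all arrays 1 distribution of signals, the difference between the highest and the lowest bin in eif3h was 0.11, against 0.74 as deposited, and in WT it was 0.10, against 0.24. The share of probe sets called higher was 3.7% in the lowest bin and 37.1% in the highest. Many of the gene groups below lie in the highest bin. The part of signal strength and array shape in their values was not tested. For many of the groups, though not all, the relative median after quantile normalization is given beside the deposited one.

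**Figure D2:**
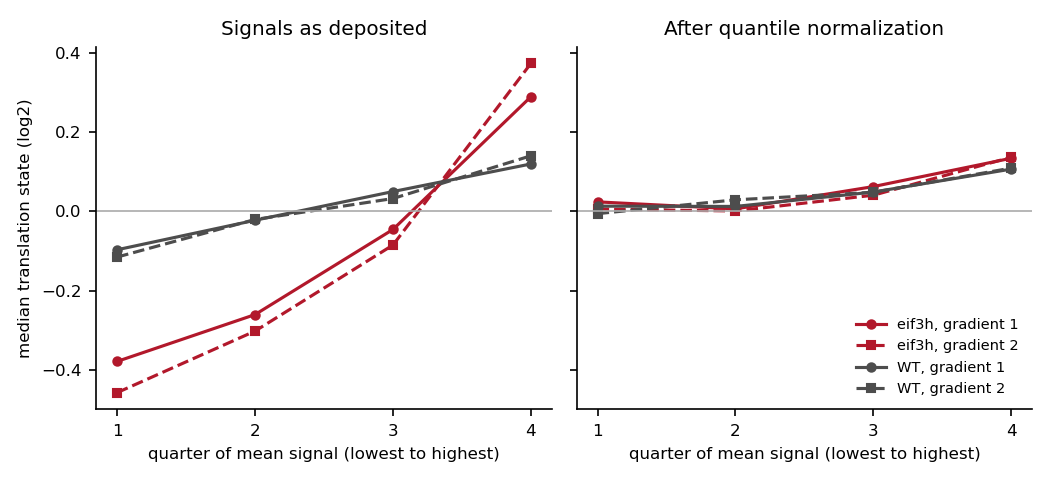
Median translation state (y axis, log2) of tested probe sets in 4 bins of mean signal (x axis, lowest to highest), by gradient, for the signals as deposited (left) and after quantile normalization (right). As deposited, the red eif3h lines climb by 0.67 and 0.83 and the grey WT lines by 0.22 and 0.26 and after quantile normalization the lines of all gradients lie close together.

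The 15 named mRNAs with the highest translation states were led by AT4G19200, which is named here by its locus only, with signals of 1582 and 1474 in eif3h PL, against 70.2 and 91.2 in eif3h NP. Its translation state was 4.25 (19.1-fold, SE 0.25, n = 2 gradients, adjusted p = 6.5e-05). AT4G32605 followed with 704.5 and 1278 in eif3h PL and 75.7 and 91.9 in eif3h NP, and a translation state of 3.51 (SE 0.32). AT1G64370 had 3863 and 3096 in eif3h PL and 469.8 and 336.8 in eif3h NP, a translation state of 3.12. In each of these 3, which were chosen by this difference, the polysomal signals were several times the non-polysomal ones. AT3G03780, annotated as a methionine synthase, which makes methionine by transfer of a methyl group to homocysteine, had 2949 and 2764 in eif3h PL and 480.3 and 412.0 in eif3h NP, a translation state of 2.68 (SE 0.20, adjusted p = 1.3e-04). AT1G11840, annotated as similar to lactoylglutathione lyase, reached 2.59 and the gene of VHA-D, subunit D of the vacuolar proton pump, 2.33. AT1G11860 had bright signals in both fractions, 6535 and 9580 in eif3h PL against 1501 and 1801 in eif3h NP, and a translation state of 2.27. The remaining 8 lay between 2.25 (AT1G09750) and 2.80 (AT1G33590). All 15 also passed the test in WT with a higher PL signal.

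At the other end, organelle messages took many of the places. cox1, the mitochondrial gene of a core subunit of cytochrome c oxidase, had 234.3 and 378.8 in eif3h PL, against 10726 and 10540 in eif3h NP. Its translation state of -5.16 (SE 0.22, adjusted p = 1.8e-05) was the lowest of all named mRNAs. petN, a plastid gene for a small subunit of the cytochrome b6f complex, had 104.2 and 341.8 in eif3h PL and 10023 and 4393 in eif3h NP. Its 2 gradients gave -6.59 and -3.68, so that the sign was shared while the size was not. The lowest nuclear mRNA with a symbol was DI21, a drought-induced gene, with 322.8 and 96.2 in eif3h PL and 7770 and 1773 in eif3h NP, a translation state of -4.40 (SE 0.42). Although its signals differed several-fold between the preparations, its gradients gave similar states of -4.59 and -4.20. AT2G18440 had a translation state of -4.22, AT1G50290, annotated as a hypothetical protein, -3.94, and AT5G47435 -3.53. AT5G47435 was about equally low in WT, at -3.21. The other places were taken by psbN and ndhF of the plastid, by nad1, ccb452 and ccb382 of the mitochondrion, and by AT2G15560, AT1G80800, AT5G44660 and AT2G07707.

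**Figure D3:**
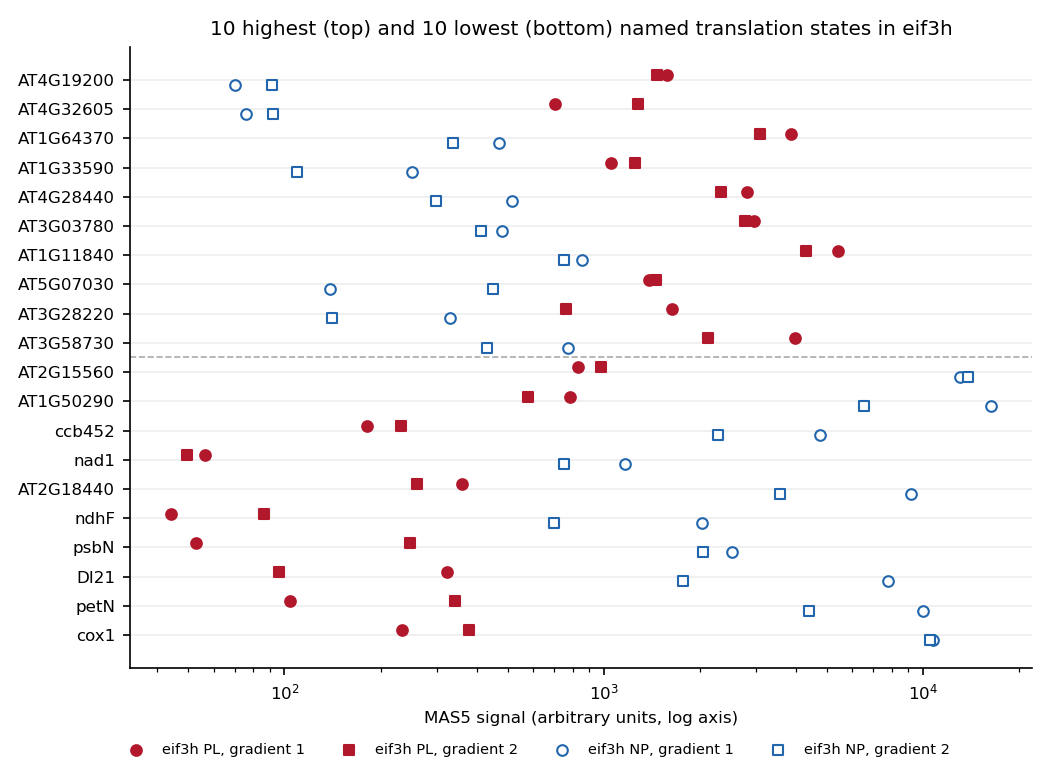
Signals of the 10 highest (above the dashed line) and 10 lowest (below it) named translation states in eif3h, on a logarithmic x axis in the arbitrary units of the arrays. Filled red points are eif3h PL and open blue points eif3h NP (circles gradient 1, squares gradient 2). The genes run from 19.1-fold higher in AT4G19200 to a translation state of -5.16 in cox1. They were chosen by these states, so the gap between the fractions follows from the choice.

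Plastid-encoded mRNAs stood out on the non-polysomal side. Of 67 tested, 56 were lower in eif3h PL and 0 were higher, where 24.6% of all 5948 genes were lower and 14% higher. Their median translation state was -1.83, which is 1.61 below the median of all genes (relative median -1.61, and -1.92 after quantile normalization). In WT the relative median was -0.74, with 27 lower and 3 higher, where 17.4% and 12.3% of all genes were called. The strength differed between the mutant preparations: the relative median was -2.47 in eif3h gradient 1 and -0.97 in eif3h gradient 2, and 65 of the 67 were lower in gradient 1. The median of gradient 1 minus gradient 2 over these genes was -1.37 in eif3h and -0.23 in WT. Preparation day, scan day and scanner all changed together between the gradients and cannot be told apart.

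By complex, the medians were lower in gradient 1 than in gradient 2 throughout, and differences between complexes were not tested. The 6 genes of the cytochrome b6f complex had a median of -2.51 (-2.96 in gradient 1 and -1.99 in gradient 2) and all were lower. The 10 genes of the NADH dehydrogenase-like complex, which cycles electrons around photosystem I, had a median of -2.49 (-3.82 and -1.35 in gradients 1 and 2) with 9 lower. For the 15 genes of photosystem II the median was -1.78 (-2.15 and -1.18) with 14 lower, among them psbA, the gene of the D1 protein, with 4525 and 15624 in eif3h PL and 79779 and 75210 in eif3h NP (translation state -3.20, SE 0.64, adjusted p = 0.0046). The 6 genes of the ATP synthase had a median of -1.35 (-2.06 and -0.87) and the 14 ribosomal protein genes one of -1.36 (-1.49 and -0.82) with 8 lower. rbcL, the large subunit of Rubisco, had 838.0 and 3506 in eif3h PL and 18435 and 10583 in eif3h NP, a translation state of -3.03 (SE 0.53), while in WT the fractions were nearly even at 0.02. For rbcL the difference from WT was -3.05 (SE 0.76, adjusted p = 0.18) and did not pass. Only psaA, for a core protein of photosystem I, and the ribosomal protein gene rpl22 had positive means, and neither passed the test. psaA had 472.9 and 1002 in eif3h PL and 495.8 and 418.4 in eif3h NP, so that the gradients gave -0.07 and 1.26.

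Of 23 probe sets on the array that carry names of the mitochondrial genome, 7 were tested. All 7 were lower in eif3h PL, with a median of -3.69 (relative median -3.47, and -2.19 in WT). They were cox1, ccb452 at -4.01, ccb382 at -3.69, nad4 at -2.98, 2 probe sets of nad1 at -4.14 and -2.53, and orfX at -2.16. nad1 and nad4 encode subunits of complex I, and the ccb genes are named for cytochrome c biogenesis. In WT the 7 were also all lower. The signal filter used the mean over all arrays, so bright NP signals alone could carry a probe set past it. The nad1 probe set at -4.14 had 56.6 and 49.7 in eif3h PL against 1169 and 749.5 in eif3h NP. The shared direction of the 7 is therefore not free of the filter.

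Nuclear genes for the same organelles lay on the other side. The counts of members given for these and the following lists stand beside 14% higher and 24.6% lower over all genes, and 31.6% and 20.4% in the bin of highest signal. All 10 plastid ribosomal proteins encoded in the nucleus had a positive translation state and 9 passed, with a median of 1.42 (relative median 1.64, 1.09 after quantile normalization, and 0.99 in WT). AT5G47190 had 7226 and 6419 in eif3h PL and 1598 and 1423 in eif3h NP, a translation state of 2.17 (SE 0.20, adjusted p = 2.2e-04). AT2G43030 had 16088 and 18152 in eif3h PL against 3805 and 4235 in eif3h NP (2.09), and AT4G01310 reached 1.99. Nuclear genes of the photosynthetic light reactions were higher for 6 of 8, with a relative median of 1.17 (0.86 after quantile normalization), such as the antenna gene LHCB4.2 at 1.24, PSBY of photosystem II at 1.33 and PSAN of photosystem I at 1.14. All 4 tested enzymes of the Calvin cycle were higher, with phosphoribulokinase (PRK) at 1.12, sedoheptulose bisphosphatase (SBPASE) at 0.66 and Rubisco activase (RCA) at 0.82. After quantile normalization 3 of the 4 were higher, against 22.3% of genes in the bin of highest signal.

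Mitochondrial energy metabolism showed the same contrast between genomes. Of 39 nuclear genes of oxidative phosphorylation, 23 were higher and 2 lower, with a relative median of 0.90 (0.51 after quantile normalization, and 0.32 in WT). FRO1, a subunit of complex I, had 4696 and 3864 in eif3h PL and 1461 and 1024 in eif3h NP, a translation state of 1.80 (SE 0.18, adjusted p = 3.0e-04). AT5G52840 stood at 1.71 and AT3G15640 at 1.54. The 2 genes that went the other way were AT2G01090 at -1.51 and AT3G62400 at -0.66. Of 13 enzymes of the tricarboxylic acid cycle and pyruvate dehydrogenase 6 were higher and 0 lower (relative median 0.94), with AT5G08300 at 1.98, AT2G20420 at 1.68 and the succinate dehydrogenase gene SDH1-1 at 1.04.

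Proteins of the cytosolic ribosome lay above the median of all genes, with a margin that depended on the scaling. Of 63 large-subunit proteins 24 were higher and 1 lower in eif3h PL, and of 41 small-subunit proteins 20 were higher and 0 lower. The relative medians were 0.62 and 0.79 as deposited and 0.18 and 0.35 after quantile normalization. After it, 16 of the 63 were higher and 4 lower, and 12 of the 41 were higher and 3 lower. In the bin of highest signal 22.3% of genes were then higher and 24.2% lower. In the list, 57 of the 63 and 36 of the 41 lay in the bin of highest signal, in which 31.6% of all genes were higher and 20.4% lower and the median was 0.20, against 0.40 and 0.57 for these lists. AT1G18540 of the large subunit had 10664 and 10281 in eif3h PL and 3848 and 3103 in eif3h NP, a translation state of 1.60 (SE 0.19, adjusted p = 5.4e-04). AT5G09510 of the small subunit had 2746 and 2758 in eif3h PL and 981.2 and 765.7 in eif3h NP, a translation state of 1.67, and AT3G04840 reached 1.47. The large-subunit gene AT3G09500 was the exception with 10518 and 9079 in eif3h PL against 19477 and 12694 in eif3h NP, a translation state of -0.69 (adjusted p = 0.021).

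Set beside WT, these ribosomal protein mRNAs stood higher in the mutant. Of the 104 genes of both subunits, 44 were higher and 1 lower in eif3h, and 19 were higher and 23 lower in WT. The difference between the genotypes was positive for 94 of the 104, against 40.4% of all genes and 62.0% of those in the bin of highest signal. For 47 it was positive at an unadjusted p below 0.05, whereas 0 were negative at that level. Over all 5948 genes 6.3% were positive and 8.4% negative at that level, and in the bin of highest signal 17.6% and 5.01%. The adjusted p passed for 1 of the 104, AT3G14600, described below. After quantile normalization the positive differences at an unadjusted p below 0.05 were 17 of 63 in the large subunit and 17 of 41 in the small subunit, against 6.78% of all genes and 10.5% in the bin of highest signal, and 0 probe sets passed above WT after adjustment.

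The P proteins, which form the stalk of the large subunit where elongation factors bind, were higher for 7 of 11 and lower for 1 (relative median 1.08, and 0.60 after quantile normalization). The lower one, AT3G09200, was among the brightest signals of the arrays, with 14569 and 18361 in eif3h PL and 61271 and 66423 in eif3h NP. Its translation state of -1.96 (SE 0.20, adjusted p = 3.0e-04) was close to that in WT, -1.71, whereas its relatives AT5G57290 and AT2G27710 stood at 1.66 and 1.37.

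Translation factors did not move as a block. Of 5 tested subunits of eIF3 other than eIF3h, AT4G20980 at 0.90 and AT1G66070 at 0.78 were higher and AT3G02200 was lower, with 1574 and 1541 in eif3h PL against 3955 and 2808 in eif3h NP (-1.10, SE 0.20). Of 10 other initiation factors and poly(A)-binding proteins 2 were higher, AT2G04520 at 1.81 and AT5G35680 at 1.13, and 2 were lower, AT4G27130 at -1.13 and AT5G54940 at -0.71. Aminoacyl-tRNA synthetases, which charge tRNAs with amino acids, were higher for 5 of 13 and lower for 0 (relative median 0.71, and 0.32 after quantile normalization), with AT4G39280 at 0.98. As 10 of the 13 lay in the bin of highest signal, this count is near the 31.6% found there.

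Of 9 subunits of the 26S proteasome 5 were higher and 0 lower (relative median 0.84, and 0.55 after quantile normalization), with AT5G23540 at 1.24 and AT1G45000 at 0.94. The cytosolic chaperonin CCT, which folds actin and tubulin, had 3 of 8 higher (AT5G26360 at 1.48 and AT1G24510 at 1.35 among them) and AT5G16070 lower at -0.83. Among 8 tubulins and actins 4 were higher and 1 lower, with TUB7 at 1.18 and TUB6 at 1.12 against TUA6 at -0.87. Subunits of the vacuolar and plasma membrane proton pumps were higher for 3 of 7. Of 11 ubiquitin-conjugating enzymes and polyubiquitins only 2 passed, UBC27 at 0.80 and UBC28 at -1.48, and the relative median of -0.07 changed sign with no filter on signal (0.17) and without eif3h replicate 1 (0.11).

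Among regulatory genes, of 33 transcription factors 12 were lower and 0 higher, against 24.6% and 14% of all genes. After quantile normalization 6 of the 33 were lower and 0 higher, against 16.7% and 15.9% of all genes. The relative median was -0.17, and it was -0.27 after quantile normalization, -0.32 without eif3h replicate 2, -0.27 with no filter on signal and -0.41 in the upper 25% of signals. The bZIP factor BZIP53 had 842.3 and 843.5 in eif3h PL and 4770 and 3596 in eif3h NP, a translation state of -2.30 (SE 0.23, adjusted p = 3.0e-04). PHV, a homeodomain factor of leaf polarity, stood at -1.20, AGL16 at -0.90 and bHLH121 at -1.16. Of 30 leucine-rich repeat receptor kinases 5 were lower and 3 higher, which is no more than the 24.6% and 14% of all genes. Their relative median was -0.02 in eif3h, with a change of sign after quantile normalization (0.14), without eif3h replicate 2 (0.21), with no filter on signal (0.17) and in the upper 25% of signals (0.03), and it was 0.45 in WT. The difference from WT was positive for 2 of these 30 as deposited and for 5 after quantile normalization, against 40.4% of all genes as deposited. It was negative at an unadjusted p below 0.05 for 7, against 8.39% of all genes, and 0 passed after adjustment. Only 1 of the 30 lay in the bin of highest signal. In the bins below it, from the lowest, 28.2%, 31.2% and 44.1% of genes were positive, and 9.94%, 10.8% and 7.24% were negative at that level. The lower ones included AT5G63930 at -1.26 and AT1G07650 at -0.96, and the higher ones AT3G56370 at 1.39, AT2G01820 at 0.86 and AT4G36180 at 0.84. Of 3 soluble protein kinases AT5G45430 had 281.8 and 480.5 in eif3h PL and 1351 and 2237 in eif3h NP (-2.24, SE 0.20), and AT4G19110 stood at -1.77. In WT these kinases were at -0.53 and -0.18, and the differences of -1.71 and -1.59 did not pass (adjusted p = 0.083 and 0.10). Among 9 histones 2 were higher, HTB4 at 0.83 and AT1G06760 at 0.72.

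Some leaders hold an upstream reading frame whose peptide is conserved between species, and of 8 such mRNAs tested 3 were lower and 1 was higher. Their relative median was -0.33 (-0.52 after quantile normalization), with -0.22 in gradient 1 and -0.56 in gradient 2, and it was 0.06 in WT. BZIP53 is 1 of them, AT3G25570 stood at -1.64 and AT5G09460 at -0.91, whereas PMEAMT, a methyltransferase of choline synthesis, was higher at 0.86. GBF6 (bZIP11, AT4G34590), whose leader was used as a reporter in the study, had 1331 and 1443 in eif3h PL and 4040 and 6185 in eif3h NP. Its translation state was -1.85 (SE 0.21, adjusted p = 4.5e-04) in eif3h and -1.25 in WT, and the difference of -0.60 (SE 0.30, adjusted p = 0.40) did not pass. LHY (AT1G01060), a clock transcription factor whose leader was used likewise, had 1570 and 1426 in eif3h PL and 2544 and 2369 in eif3h NP. Its translation state of -0.71 (SE 0.29, adjusted p = 0.076) did not pass, although the eif3h gradients gave -0.70 and -0.73 and the WT gradients 0.43 and 0.37. The difference of -1.11 (SE 0.41, adjusted p = 0.28) did not pass either.

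**Figure D4:**
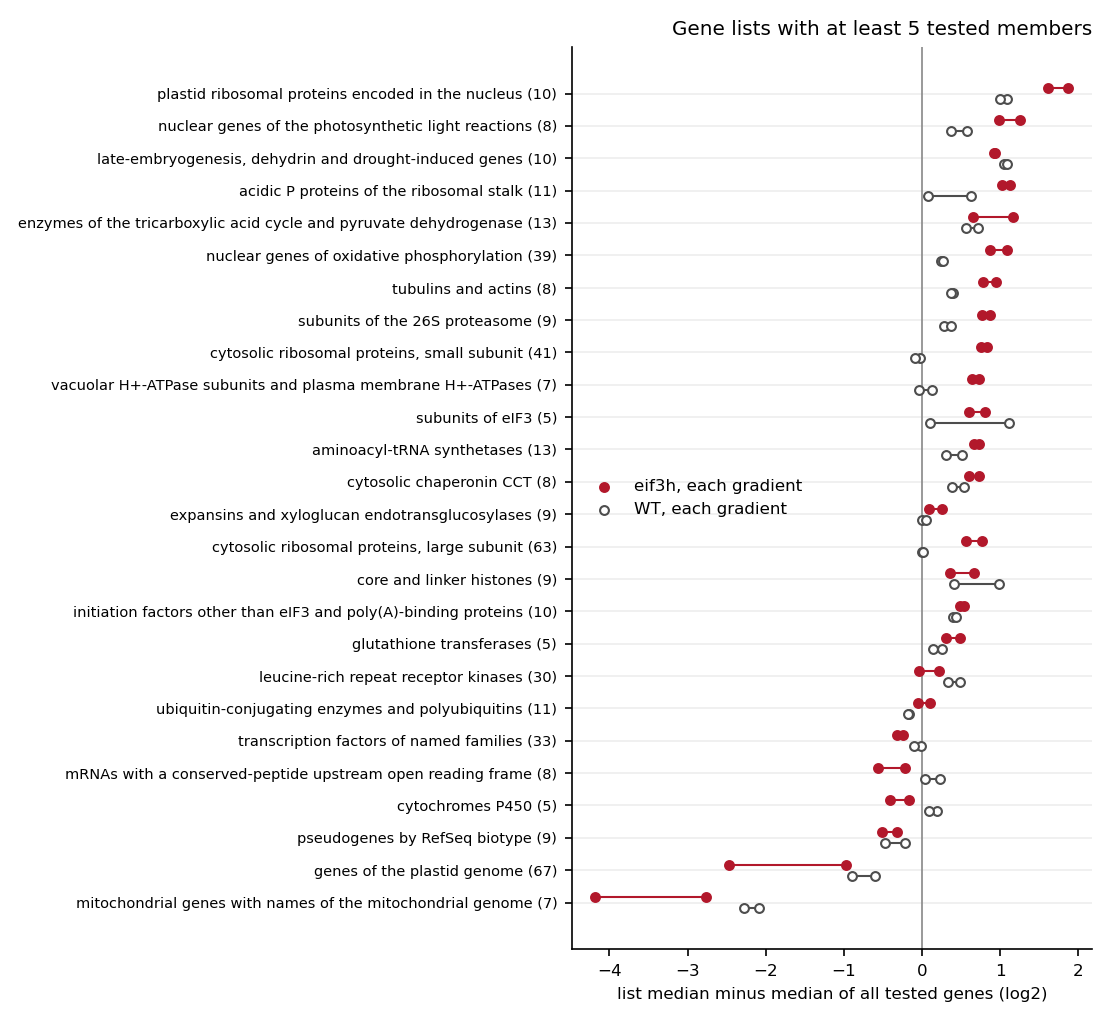
Median translation state of each gene list with at least 5 tested members (number in parentheses) minus the median of all tested genes (x axis, log2), for eif3h (filled red, above) and WT (open grey, below) with 1 point per gradient. Plastid ribosomal proteins encoded in the nucleus lie farthest to the right (1.61 and 1.87 in eif3h) and mitochondrial and plastid genes farthest to the left, with the plastid genes at -2.47 and -0.97 in the eif3h gradients.

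Many calls were shared with WT. Of the 1925 probe sets higher in eif3h PL, 1178 (61.2%) were also higher in WT PL, which is 68.9% of the WT calls, and 8 were lower in WT PL. Of the 2529 lower ones 1214 (48.0% of the eif3h calls, 70.8% of the WT calls) were lower in WT as well, and 3 were higher. A call in 1 genotype alone is no sign of a difference, which needs its own test. That test, the interaction of fraction and genotype in the same fit, passed for 2 probe sets above WT and 4 below it (0.0176% and 0.0352% of those tested, 0.0528% together), and 1647 had an unadjusted p below 0.05. These counts rest on the design. They were 0 and 0 without the replicate block and 116 and 70 with the gradient as a block. In RNA from all aerial tissues together, a change of loading within cells and a change in the mix of cell types cannot be told apart in a genotype difference.

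TIF3H1 (AT1G10840), the gene that carries the insertion, was among the 6. Its signals were 213.4 and 192.4 in eif3h PL and 1897 and 1950 in eif3h NP, a translation state of -3.25 (SE 0.19, adjusted p = 6.5e-05). In WT it had 1277 and 1149 in PL and 2160 and 1733 in NP, a translation state of -0.68, and the difference was -2.57 (SE 0.27, adjusted p = 0.042). The mutant NP signals overlapped those of WT, and the mutant PL signals lay below all the others. The position of its probes with respect to the T-DNA is unknown here, and these signals do not check the genotype labels.

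The largest difference was that of AT2G15560, with 831.9 and 981.3 in eif3h PL and 13084 and 13867 in eif3h NP, against 125.8 and 139.4 in WT PL and 63.0 and 177.4 in WT NP. The translation state was -3.90 in eif3h, and in WT the gradients gave 0.998 and -0.35 from signals below the array medians. AT5G55600, annotated as an unknown protein, had 120.1 and 106.3 in eif3h PL and 655.0 and 682.6 in eif3h NP (-2.57), while in WT the state was 0.05. An unnamed probe set, chosen after its value was seen because it passed, had -2.16 in eif3h and 0.51 in WT. On the positive side stood AT5G18800, a subunit of complex I, with 2753 and 2244 in eif3h PL and 1095 and 965.0 in eif3h NP, against 1518 and 1362 in WT PL and 2524 and 2454 in WT NP. Here the fractions changed order, with a translation state of 1.27 in eif3h and -0.79 in WT. AT3G14600, a ribosomal protein L18a, had 5554 and 4886 in eif3h PL and 5176 and 3491 in eif3h NP, and 4293 and 3175 in WT PL and 17155 and 12021 in WT NP. In the mutant its fractions did not differ beyond the error (0.29, SE 0.19, adjusted p = 0.24), whereas in WT its state was -1.96.

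**Figure D5:**
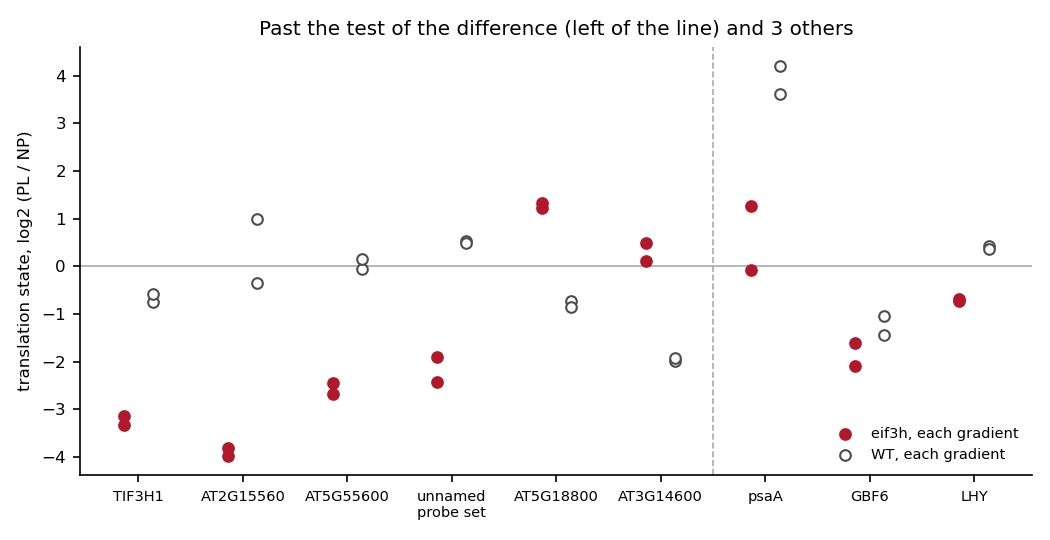
Translation state (y axis, log2 of PL over NP) of 9 probe sets in the 2 eif3h gradients (filled red) and the 2 WT gradients (open grey). Left of the dashed line are the 6 probe sets past the test of the difference, which were chosen by that test. Right of it are psaA, GBF6 and LHY, which did not pass.

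The other named differences did not pass, with adjusted p from 0.068 to 0.13. AT1G62480 stood at 2.12 in eif3h and 0.13 in WT, and AT1G08110, annotated as a glyoxalase I, at 0.78 in eif3h and -1.18 in WT (differences 1.98 and 1.95, adjusted p = 0.080 and 0.068). AT1G02300, annotated as a cathepsin B-like protease, had 0.84 in eif3h and -1.92 in WT. AT3G48680 had 0.41 in eif3h and -1.68 in WT, AT4G15520 had 0.92 in eif3h and -1.01 in WT, and AT5G59250 had 2.17 in eif3h and 0.29 in WT. Among those below WT, psaA had a state of 0.60 in eif3h and 3.91 in WT (difference -3.31, SE 0.48, adjusted p = 0.070), since its PL signals were 472.9 and 1002 in eif3h against 6318 and 4468 in WT. AT1G50290 had -3.94 in eif3h and -1.63 in WT, AT1G65840, annotated as a polyamine oxidase, -2.50 in eif3h and -0.19 in WT, AT1G60200 -2.80 in eif3h and -0.59 in WT, and AT1G55690 -1.07 in eif3h and 1.08 in WT.

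Of the 11373 probe sets tested, 366 were positive in both eif3h gradients and negative in both WT gradients. Another 680 were negative in both eif3h gradients and positive in both WT gradients. These counts are not a test of the difference, which passed for 6 probe sets. The median translation state was -0.16 in eif3h and 0.01 in WT, and the counts under another scaling were not computed.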

How the data were processed

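Per the methods, the authors processed the ATH1 arrays with MAS5, which corrects the background and scales every array to a common trimmed mean, and the deposited values are signal intensities on a linear scale. Control probe sets were left out, log2 was taken without an offset, and of 22746 probe sets the 50% with the strongest mean log2 values entered the tests (11373). All 8 arrays were fitted in R 4.3.3 with limma 3.58.1 (lmFit, eBayes with trend), using 4 group means and a block for the replicate number, which left 3 residual degrees of freedom. Replicates were preparations of different days according to the methods, and a replicate number also marks 1 scan day and scanner. Deviations from the group means correlated between every pair of groups (r = 0.33 to 0.68), so the numbers pair the samples. Within a genotype r was 0.52 in eif3h and 0.68 in WT, and between genotypes 0.33 to 0.40. The block was 1 term shared by both genotypes and did not model each gradient as its own pair. A block for each gradient was run as an alternative. The number of arrays limits the precision.

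Names came from the platform annotation matched to RefSeq (TAIR10.1, names only) and, for 349 tested probe sets, from the study's gene list. No name was available here for 4810 tested probe sets, and 224 had several genes. A gene was represented in the lists by its brightest probe set (5948 genes), except for mitochondrial names, and lists were written as loci from general knowledge. Named genes were the 15 highest and 15 lowest states past the test in both gradients with every eif3h signal at or above the 20th percentile of its array, the 8 largest differences from WT in each direction among the first 100 by p, and up to 4 members per list by smallest p, with any opposite call. The members and lists were chosen with earlier results of these data known, and the study named several of these groups on these arrays, so their directions are not independent evidence. Of 22 cell type markers 6 had a named probe set, and of 39 lists 31 had at least 3 tested members. List counts cover only members that passed the signal filter. These were 33 of 87 transcription factors on the array, 30 of 55 receptor kinases and 3 of 6 soluble kinases. Alternatives were other scalings, filters, offsets, blocks and leaving out each gradient. Protein and leader lengths were not analysed here.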

Additional observations from a re-analysis of the deposited data

Results flagged for a closer look

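The test of the difference between genotypes passed for 6 probe sets, which is why they are listed here. AT2G15560 differed by -4.22 on the log2 scale, with signals of 831.9 to 13867 in eif3h and 63.0 to 177.4 in WT, so that its WT state rests on weak signals. TIF3H1 (AT1G10840) differed by -2.57, AT5G55600 by -2.62 and an unnamed probe set by -2.67. AT5G18800 differed by 2.07 and AT3G14600 by 2.25. Over 11 or 12 alternatives each kept its sign, although blocks, filters and the variance trend do not change the size of a difference. AT2G15560 passed in 9 of 12, TIF3H1, AT5G18800 and AT3G14600 in 6 of 12, and AT5G55600 and the unnamed probe set in 5 of 11. The adjusted p of AT2G15560 ranged from 4.6e-19 to 0.32 and that of AT3G14600 from 2.6e-14 to 0.44. With 2 gradients per genotype no check for outlying arrays within a group was made.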

How the results depend on the processing

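Every call within eif3h kept its direction under each other scaling, wherever it was called again. For centring, which adds the same shift to every eif3h mean state, this was largely fixed in advance. Under the alternatives other than scaling the direction was fixed in advance as well. Blocks, filters, the variance trend and leaving out a WT gradient do not change a state. An offset, or leaving out an eif3h gradient, cannot reverse a state that has 1 sign in both gradients. Centring on the median gave 3895 higher and 968 lower, against 1925 and 2529 in the deposited scaling, and the upper 25% of signals, with 5686 probe sets tested, gave 1143 lower. The fit with no replicate block, which ignores the replicate number, gave 1195 higher and 1468 lower, and 0 above and 0 below WT. The counts of differences from WT, 2 above and 4 below, were 0 and 1 after quantile normalization, 35 above after centring, 0 and 0 with no filter on signal, 5 above in the upper 25%, 116 and 70 with the gradient as a block, and 0 and 0 without the variance trend. Leaving out 1 gradient gave 1970 to 2142 higher and 2384 to 2738 lower within eif3h, and 0 to 523 above and 1 to 394 below WT. The extremes above WT were 0 without WT replicate 1 or WT replicate 2, 523 without eif3h replicate 1 and 353 without eif3h replicate 2, where 362 and 394 were below WT. In these fits the lone gradient of a genotype is assumed to vary like the others. The cause of these changes was not tested. The ratio of the spreads of translation states, eif3h over WT, was 1.14 and became 1.089 with no filter. Of 260 values of named genes in eif3h, 7 lost and 10 gained the call. Alternatives on protein length were not run.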

Other observations

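Some strong translation states rested on weak signals. Of 2502 named calls with 1 sign in both eif3h gradients, 9 had at least 1 eif3h signal below the 20th percentile of its array, 7 of them higher and 2 lower. SDRB, a short-chain dehydrogenase, had 969.0 and 678.1 in eif3h PL and 205.7 and 27.2 in eif3h NP, and its gradients gave 2.24 and 4.64. THI2.2, which encodes a thionin, a small antimicrobial peptide, had 792.7 and 435.3 in eif3h PL against 236.2 and 40.5 in eif3h NP, with 1.75 and 3.43. AT1G76550 had 1.52 and 3.52. On the other side AT3G27340 had 77.6 and 27.7 in eif3h PL against 594.3 and 683.8 in eif3h NP, a translation state of -3.78, and AT4G02540 one of -1.70.

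Stress genes were split. Of 10 late-embryogenesis, dehydrin and drought-induced genes 5 were higher and 2 lower in eif3h PL. AT2G44060 had 8046 and 6737 in eif3h PL and 2109 and 1550 in eif3h NP (2.03), and the cold-regulated gene COR15B stood at 1.66, whereas DI19 had 1237 and 1050 in eif3h PL against 10214 and 6297 in eif3h NP (-2.81). The glutathione transferases GSTU20 and GSTL3, which conjugate glutathione to toxic compounds, stood at 1.99 and 1.45, and the 9 expansins and xyloglucan endotransglucosylases held 0 calls. Of 989 pseudogenes on the array 9 were tested, and 3 of these were lower, with AT3G07280 at -2.0, where 24.6% of all genes were lower. Of 23 cytochromes P450 on the array 5 were tested, and 1 was lower, CYP71B34 at -0.90. Of 3 metallothioneins and copper chaperones 2 were lower, AT1G53030 at -2.30 and MT1C at -1.19. The splicing factor gene ATU2AF65A stood at -1.22 (adjusted p = 0.0031).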
